A study of Mus musculus with 4 samples.

Results

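The genes described here encode the collagens, the laminins and the main other components of basement membranes, with fibronectin and the matricellular protein SPARC. Members were taken by symbol: every collagen chain gene, every laminin chain gene, and Nid1, Nid2, Hspg2, Agrn, Fn1 and Sparc. The rule found 61 of the 22063 genes in the table. It used no measured value. TKPTS cells, a mouse proximal tubular epithelial line, were transfected with scrambled control siRNA (si-NC, genotype label WT, n = 2 libraries) or with siRNA against Itgb6 (si-Itgb6, genotype label Itgb6 knockdown, n = 2 libraries). Itgb6 encodes the β subunit of integrin αvβ6. All 4 libraries came from cells kept at 1% O2 for 24 h and then reoxygenated for 12 h, so hypoxia/reoxygenation was shared by both groups and no normoxic library was compared. Nothing in the labels said that the libraries of a group came from separate cultures, so the p-values measure the spread between these libraries, which may be technical.

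Laminins are heterotrimers of an α, a β and a γ chain, and type IV collagen is a heterotrimer of α chains. These 2 polymers form the sheet beneath an epithelium, and nidogens and the heparan sulfate proteoglycans perlecan and agrin tie the sheet together. Fibrillar collagens build the interstitial matrix and are made mainly by fibroblasts. In the kidney, tubular cells lay down and anchor to the tubular basement membrane, and fibrosis is marked by an excess of interstitial collagen and fibronectin.

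Estimated counts summed to between 15435074 and 17220281 per library. The targeted gene was the first check of the labels. Itgb6 had 285 and 284 counts in the si-NC libraries and 279 and 260 in the si-Itgb6 libraries. Its log2 fold change (si-Itgb6 against si-NC, here and throughout) was -0.01 (SE 0.13, 95% confidence interval -0.27 to 0.26, edgeR adjusted p = 0.991), so its mRNA did not separate the groups, and each direction below refers to the libraries labelled si-Itgb6. Epithelial markers were abundant, with 5124 to 5391 CPM (counts scaled to a common library size with TMM factors) summed over 8 genes. Of 13 proximal tubule markers, 6 had no count in any library, among them Slc34a1, the phosphate transporter that defines this segment. The libraries thus carried an epithelial profile in which most markers of mature proximal tubule were at or near 0. Fibroblast markers summed to between 69 and 82 counts per library, most of them from Pdgfrb and Twist2, with Dcn and Lum at no more than 5 and 1 counts.

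Of the 61 genes, 21 passed the filter on low counts and were tested, within a fit of 11727 genes. The other 40 were not tested: 11 had no count in any library and none of the other 29 exceeded 22 counts in a library. By class, the tested genes were 10 of 11 laminin chains, 5 of 8 basement membrane collagens (types IV, XV and XVIII), 2 of 4 linkers and proteoglycans, both glycoproteins, 2 of 25 other collagens and 0 of 11 fibrillar collagens. A gene with few counts could pass through its higher group alone, so the tested genes are not a sample of all 61. In all, 4 genes were lower in the si-Itgb6 libraries at p under 0.05 and a fold change over 1.2. They were Hspg2, Col18a1, Col4a1 and Col4a2, each a component of the basement membrane. Over all genes tested, 5.20% passed the same thresholds as lower. No tested member passed as higher with edgeR, against 4.37% of all genes. At an unadjusted p under 0.05 without the fold threshold, 9 were lower and 1 higher, against 9.62% and 8.80% of all genes. DESeq2 called the same 4 lower and 0 higher, against 3.27% and 2.73% of all genes.

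The promoters of these 4 genes are given because they were the genes called lower, a choice that fixed their shared direction. Of them, Col4a1 and Col4a2 are transcribed away from a common promoter. The windows run from 250 bases before to 50 bases after the RefSeq gene start in GRCm38.p6, each 5′ to 3′ on its gene's strand. Capitals mark GC boxes (GGGCGG or CCGCCC, bound by SP-family factors), CCAAT boxes (CCAAT or ATTGG) and the TEAD motif (CATTCC or GGAATG, bound by the partners of YAP), each searched on both strands. Col18a1 has 2 windows.
Col4a1, chr8:11312777-11313076, minus strand: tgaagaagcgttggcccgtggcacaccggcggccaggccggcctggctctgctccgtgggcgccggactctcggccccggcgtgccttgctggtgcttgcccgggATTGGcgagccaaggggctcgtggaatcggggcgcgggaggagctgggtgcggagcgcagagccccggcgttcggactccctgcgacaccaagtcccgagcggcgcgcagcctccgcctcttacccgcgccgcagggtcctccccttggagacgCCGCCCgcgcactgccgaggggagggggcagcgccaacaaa
Col4a2, chr8:11312555-11312854, plus strand: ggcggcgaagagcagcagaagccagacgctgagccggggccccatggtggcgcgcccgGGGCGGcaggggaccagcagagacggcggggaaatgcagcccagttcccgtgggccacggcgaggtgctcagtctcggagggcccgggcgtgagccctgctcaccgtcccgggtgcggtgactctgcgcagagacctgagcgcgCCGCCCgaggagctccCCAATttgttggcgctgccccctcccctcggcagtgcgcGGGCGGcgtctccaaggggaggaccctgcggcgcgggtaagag
Hspg2, chr4:137468553-137468852, plus strand: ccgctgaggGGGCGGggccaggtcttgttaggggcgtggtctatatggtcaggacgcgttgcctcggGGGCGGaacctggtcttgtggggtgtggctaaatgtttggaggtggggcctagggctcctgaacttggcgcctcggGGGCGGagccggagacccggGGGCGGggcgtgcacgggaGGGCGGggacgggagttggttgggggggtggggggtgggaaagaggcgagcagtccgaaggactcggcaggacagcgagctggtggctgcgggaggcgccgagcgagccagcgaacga
Col18a1, upstream start, chr10:77166481-77166780, minus strand: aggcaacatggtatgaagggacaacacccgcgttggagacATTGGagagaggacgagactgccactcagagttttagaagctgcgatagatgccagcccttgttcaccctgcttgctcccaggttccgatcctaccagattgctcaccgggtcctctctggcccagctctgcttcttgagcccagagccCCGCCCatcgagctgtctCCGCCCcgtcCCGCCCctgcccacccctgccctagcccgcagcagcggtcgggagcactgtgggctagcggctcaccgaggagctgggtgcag
Col18a1, downstream start, chr10:77113656-77113955, minus strand: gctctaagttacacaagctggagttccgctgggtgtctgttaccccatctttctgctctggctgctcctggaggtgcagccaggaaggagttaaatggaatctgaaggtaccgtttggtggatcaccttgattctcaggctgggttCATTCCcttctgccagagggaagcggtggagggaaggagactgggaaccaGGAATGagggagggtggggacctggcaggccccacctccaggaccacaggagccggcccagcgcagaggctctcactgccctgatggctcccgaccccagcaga

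The Col4a1 and Col4a2 starts face away from each other and their transcribed stretches overlap by 22 bases, so that the 2 windows share 78 bases, read on opposite strands. The GC box of the Col4a1 window and the last of the Col4a2 window are the same 6 bases. The Col4a1 window held 1 GC box, the Col4a2 window 3 and the Hspg2 window 5. The upstream Col18a1 window held 3 GC boxes and the downstream window none. A GC box occurred in 35.7% of all 32851 windows. CCAAT boxes, present in 37.4% of all windows, were found once each in the Col4a1, Col4a2 and upstream Col18a1 windows. The TEAD motif, present in 14.7% of all windows, occurred 2 times in the downstream Col18a1 window and in none of the other 4. A TATA box (TATAAA or TTTATA), present in 13.6% of all windows, was not among the letters of any of the 5. CpG dinucleotides numbered 37 in the Col4a1, 33 in the Col4a2 and 27 in the Hspg2 window, 16 and 6 in the upstream and downstream Col18a1 windows, and 7 in the median window. Tested genes that were not called held such letters too. The Lama5 window held 4 GC boxes and 24 CpG, and the Lamb1 window 2 and 18. The Agrn windows held 12 and 42, and 2 and 11. The Lamb2 and Sparc windows held no GC box and 4 CpG each. A Lamb3 window held 1 TEAD motif. These matches describe the letters only. RefSeq windows were found for 14 of the 21 tested genes.

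Levels between genes were compared per length, in deposited FPKM (fragments scaled by transcript length and library size), as the mean of all 4 libraries. Fn1, encoding fibronectin, stood first at 149.7 FPKM. Next came Lamb3 at 100.4, Lama5 at 92.4 and Lamb1 at 91.1, whose library ranges overlapped in that order. Col18a1 stood at 72.2 and Lama3 at 52.2, without overlap. Agrn followed at 31.5, then Col4a1 at 22.4, Sparc at 21.7 and Lamc1 at 16.5, each overlapping with the next. Lamb2 at 11.9, Hspg2 at 10.5 and Col4a2 at 9.43 formed a lower group of neighbours that overlapped, and Col4a5 stood apart at 3.68. The gap to the next gene, Col7a1 at 0.571 FPKM, separated the genes above 1 FPKM from all the rest. In level, these cells expressed laminins, type IV and type XVIII collagen, proteoglycans and fibronectin, and the highest fibrillar collagen, Col27a1, reached 0.076 FPKM. Together the 61 genes took 0.522% and 0.507% of the counts in the si-NC libraries and 0.479% and 0.455% in the si-Itgb6 libraries.

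**Figure D1:**
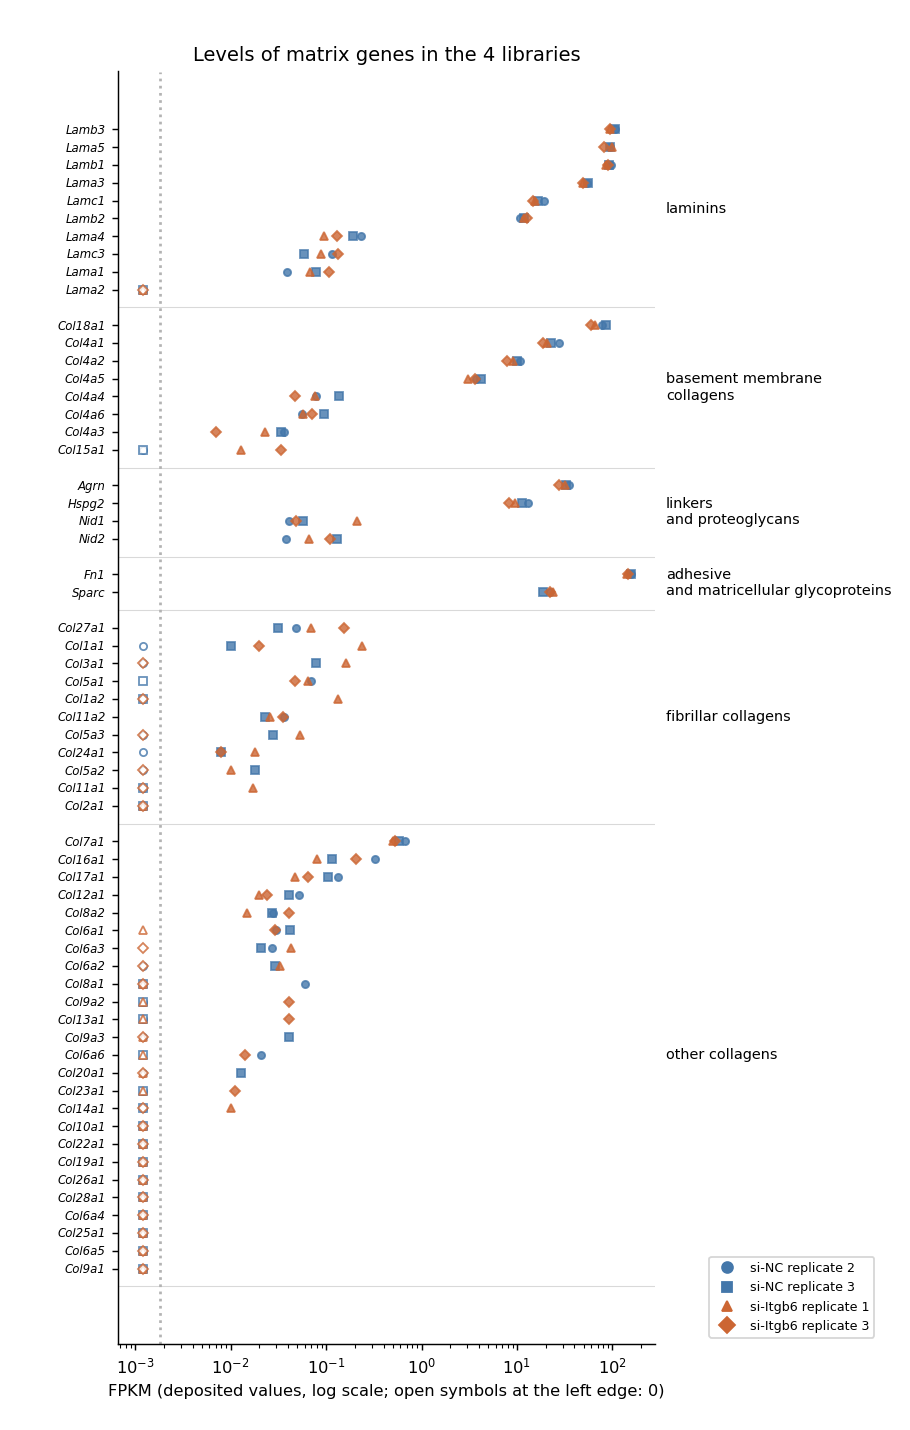
FPKM of the genes (horizontal, log scale) in the 4 libraries, grouped by class and ordered by mean level within a class; open symbols left of the dotted line stand for 0. Col18a1, Col4a1, Col4a2, Col4a5, Agrn, Hspg2, Fn1, Sparc and the laminins other than Lama1, Lama2, Lama4 and Lamc3 lie above 1 FPKM, while every fibrillar collagen lies below it.

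Hspg2 encodes perlecan, the large heparan sulfate proteoglycan that bridges the laminin and type IV collagen networks. It had 2994 and 2727 counts in the si-NC libraries and 2106 and 1945 in the si-Itgb6 libraries. Both si-Itgb6 libraries lay below both si-NC libraries. Its level was 171 ± 18.2 CPM in si-NC and 127 ± 12.7 CPM in si-Itgb6 (SD, n = 2 each), a 1.34-fold lower value (log2 fold change -0.43, SE 0.07, edgeR adjusted p = 0.0003). Agrn encodes agrin, a second heparan sulfate proteoglycan that binds laminins and dystroglycan. It had 4000 and 3982 counts against 3450 and 3246. The groups did not overlap, but the difference was smaller, at -0.18 (SE 0.06, edgeR adjusted p = 0.078), and did not reach the 1.2-fold threshold. It was -0.27 without si-Itgb6 replicate 1 and -0.09 without si-Itgb6 replicate 3. The nidogens, which link laminins to type IV collagen, were close to absent from the counts: Nid1 had 4, 6, 20 and 5 counts and Nid2 3, 11, 5 and 9 (si-NC replicates 2 and 3, then si-Itgb6 replicates 1 and 3). Of the Nid1 counts, most came from si-Itgb6 replicate 1.

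Col18a1, whose protein carries heparan sulfate chains and releases endostatin from its C-terminal end, had 5483 and 5456 counts in si-NC and 4100 and 4169 in si-Itgb6. The replicates lay close together and the groups far apart, at 326 ± 14.4 against 259 ± 8.25 CPM (SD, n = 2 each), 1.26-fold lower (log2 fold change -0.33, SE 0.05, edgeR adjusted p = 0.0003). Col4a1 and Col4a2 encode the 2 chains of the ubiquitous type IV collagen trimer, in which 2 α1 chains join 1 α2 chain. Col4a1 had 2327 and 2114 counts in si-NC and 1643 and 1782 in si-Itgb6, a log2 fold change of -0.31 (SE 0.07, edgeR adjusted p = 0.0076). Col4a2 had 1122 and 1125 counts in si-NC and 899 and 841 in si-Itgb6, a log2 fold change of -0.30 (SE 0.08, edgeR adjusted p = 0.0316). Neither gene's groups overlapped. The ratio of Col4a1 to Col4a2, in FPKM, was 2.58 and 2.23 in the si-NC libraries and 2.29 and 2.40 in the si-Itgb6 libraries, so the ratios of the groups overlapped. The library preparation did not mark strand, and reads in the short stretch where the transcripts overlap cannot be assigned to either gene. The call of Col4a1 was lost without si-NC replicate 2 (-0.19), and that of Col4a2 without the same library (-0.26) or without replicate 3 of si-Itgb6 (-0.20), each falling under the fold threshold. Col18a1 (-0.18), Col4a1 (-0.20) and Col4a2 (-0.15) also fell under it once trends on GC and length were taken out.

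The minor type IV chains were lower in level or not tested, and they and Col15a1 were named after their values were seen. Col4a5, mutated in X-linked Alport syndrome, had 351 and 382 counts against 306 and 349, with si-Itgb6 replicate 3 just below the lower si-NC library and a difference of -0.09 (SE 0.12, edgeR adjusted p = 0.746). Col4a4 had 13 and 24 counts against 12 and 8, too few for a precise value (-0.80, SE 0.56). Col4a3, Col4a6 and Col15a1 did not pass the filter, with at most 11 counts in a library. Summed over the 8 basement membrane collagens, counts were 9307 and 9117 in si-NC and 6970 and 7159 in si-Itgb6, or 0.0574% and 0.0529% of the library against 0.0452% and 0.0429%. These sums came almost wholly from Col18a1, Col4a1 and Col4a2, so they repeat the differences of those genes. The median log2 fold change of the 5 basement membrane collagens tested was -0.31, beside 0.00 over all genes tested.

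**Figure D2:**
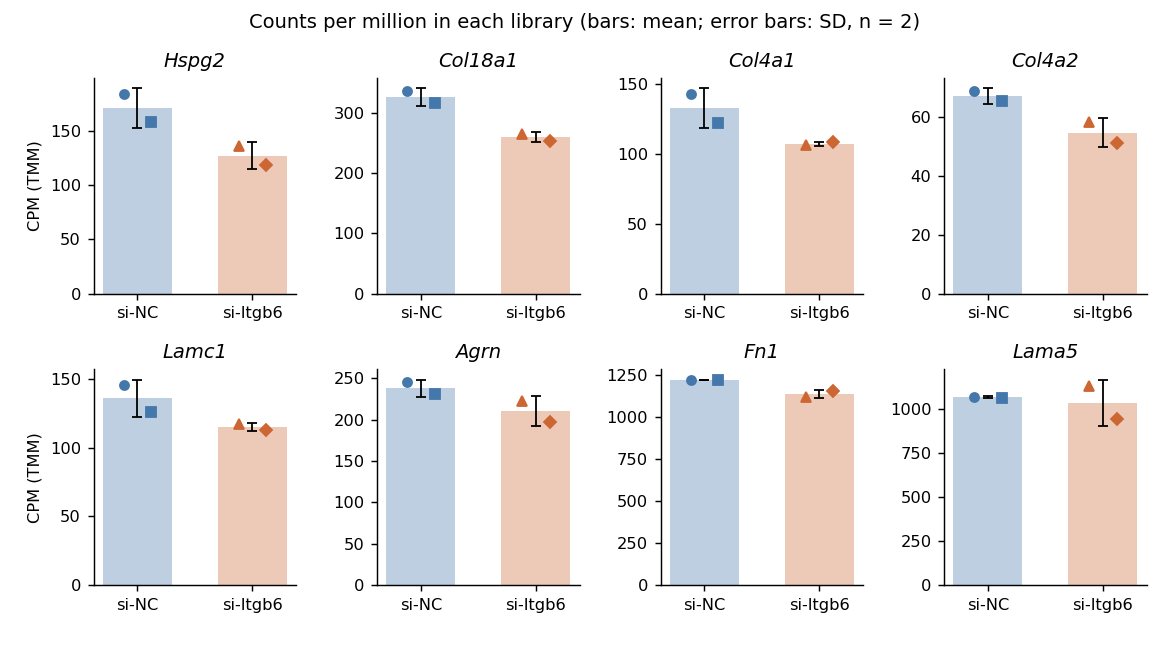
CPM of 8 genes (vertical, from 0) in each library, with circles and squares for si-NC replicates 2 and 3 and triangles and diamonds for si-Itgb6 replicates 1 and 3; bars are means and error bars SD, n = 2. Hspg2, Col18a1, Col4a1 and Col4a2 separate the groups, and the si-Itgb6 libraries of Lama5 lie on both sides of the si-NC libraries.

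The laminin chains were the most abundant class and none of the 10 tested passed both thresholds with edgeR or DESeq2, although 3 (Lamc1, Lamb3 and Lama3) were lower at an unadjusted p under 0.05, which 9.62% of all genes met. Lamb3 and Lama5 were named for their level, and the other chains named here were chosen after their values were seen. Lama3 and Lamb3 encode an α and a β chain of the laminin in epithelial anchoring complexes. Lamb3 had 6946 and 7444 counts in si-NC and 5837 and 6455 in si-Itgb6 (log2 fold change -0.16, SE 0.05, edgeR adjusted p = 0.0672). Lama3 had 4903 and 5400 counts against 4306 and 4645 (-0.13, SE 0.05, edgeR adjusted p = 0.162). Per length, the Lama3 to Lamb3 ratio stayed between 0.509 and 0.531 in all 4 libraries.

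Lama5, Lamb1 and Lamc1 make the laminin of the mature tubular basement membrane. Lama5 had 17452 and 18381 counts in si-NC and 17471 and 15538 in si-Itgb6, with groups that overlapped in CPM (-0.04, SE 0.06, 95% confidence interval -0.15 to 0.07). Lamb1 had 8888 and 9048 counts against 7610 and 8665 (-0.07, SE 0.05, interval -0.17 to 0.03). Lamc1, the γ chain shared by most laminins, was lower: it had 2375 and 2178 counts in si-NC and 1815 and 1857 in si-Itgb6, without overlap. Its log2 fold change of -0.24 (SE 0.07, edgeR adjusted p = 0.0389) passed the test but stood at 1.18-fold, just under the fold threshold. It was -0.13 when si-NC replicate 2 was left out. In FPKM, Lamc1 was 0.161 to 0.201 of Lamb1. Lamb2, which replaces Lamb1 in some basement membranes, had 984 and 1158 counts against 1034 and 1071 (0.05, SE 0.08), with Lamb1 7.05 to 8.88 times higher per length. Lama1, Lama4 and Lamc3 had at most 23 counts in a library and standard errors of 0.52 to 0.66, and Lama2 had no count, which allows up to 0.0458 CPM over the 4 libraries (3 counts of the total, counting error only). The laminins' median was -0.08. Their summed counts, 47568 and 49565 in si-NC and 43214 and 43799 in si-Itgb6, made up 0.294% and 0.288% of the library against 0.280% and 0.262%.

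Fn1 and Sparc differed from Hspg2, Col18a1, Col4a1 and Col4a2 in size or direction. Fibronectin is an adhesive glycoprotein that αvβ6 and other integrins bind. Fn1 had 19929 and 21068 counts in si-NC and 17355 and 18973 in si-Itgb6, or 1221 ± 1.56 against 1137 ± 22.0 CPM (SD, n = 2 each). The groups did not overlap, but the log2 fold change was -0.10 (SE 0.04, edgeR adjusted p = 0.194), well under the fold threshold. SPARC is a matricellular protein that binds collagens. Sparc had 651 and 609 counts in si-NC and 657 and 717 in si-Itgb6, or 37.6 ± 3.29 against 43.0 ± 0.780 CPM. It was the 1 member with a higher value at an unadjusted p under 0.05 (0.19, SE 0.09, edgeR adjusted p = 0.259), and it too stayed under the fold threshold.

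Across the 21 tested genes, 17 estimates were lower and 4 higher, and 49.95% of all genes tested had a lower estimate. The median log2 fold change was -0.16, beside 0.00 for all genes. At an adjusted p under 0.05, 5 genes were lower (the 4 above and Lamc1), against 2.52% of all genes tested. In 14 genes, every si-Itgb6 library lay below every si-NC library in CPM, against 25.4% of all genes. In bulk RNA, fewer cells expressing a gene and less RNA per cell cannot be told apart.

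**Figure D3:**
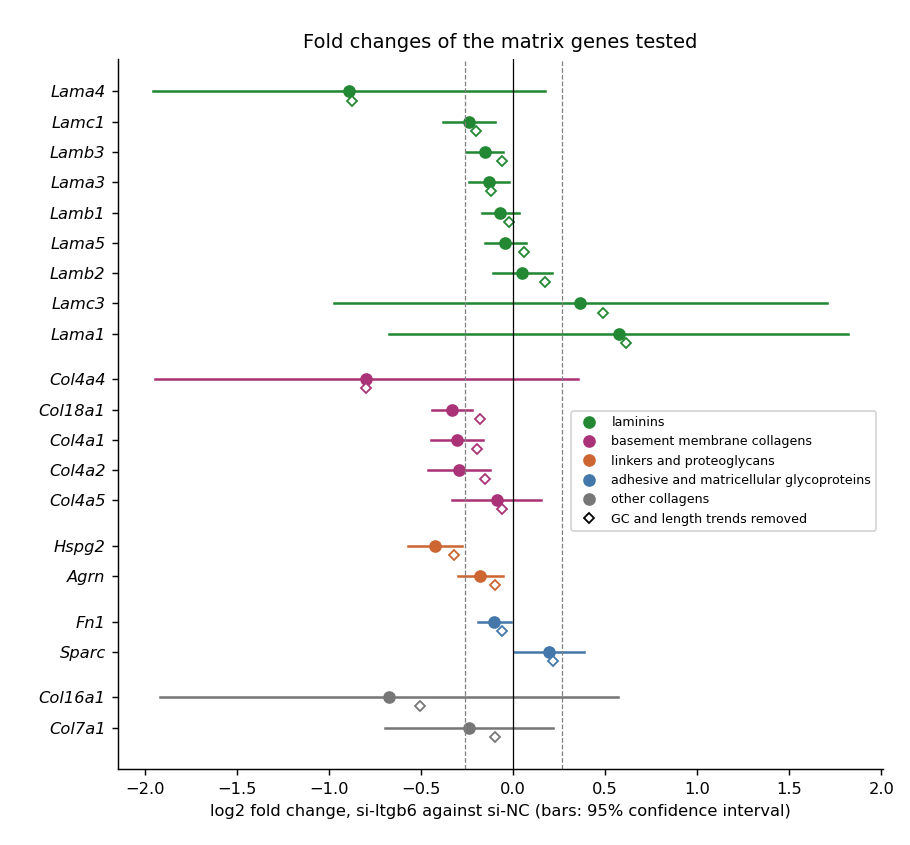
Log2 fold change of the tested genes, by class (filled circles, with 95% confidence intervals), and the same value with GC and length trends removed (open diamonds); dashed lines mark a 1.2-fold change. Hspg2, Col18a1, Col4a1 and Col4a2 lie left of the lower dashed line, as do Lama4, Col4a4 and Col16a1 with wide intervals, and the open diamonds of Hspg2, Col18a1, Col4a1 and Col4a2 lie closer to 0 than the circles.

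Part of this pattern moved with base composition. Over 11709 tested genes with a transcript model, the fold change fell with GC content (Spearman's rho = -0.364 across genes, which share the same libraries). The members are GC-rich, with a median of 55.64% GC beside 49.75% for all genes tested. Hspg2 (60.87%), Col18a1 (60.79%) and Col4a2 (60.56%) were among the richest, and Col4a1 had 57.69%. In the 1293 genes with 57 to 61% GC, the median log2 fold change was -0.11, beside -0.43 to -0.30 for these 4. Of the other members in that range with at least 1000 counts, Lama5 (59.88%) stood at -0.04 and Lamb2 (58.80%) at 0.05. Over the 15 members with at least 1000 counts, rho was -0.529. Once trends on GC and length were taken out, Hspg2 alone passed both thresholds (-0.32, edgeR adjusted p = 0.0142), against 3.96% of all genes called lower in that fit. In that fit Col18a1 stood at -0.18 (edgeR adjusted p = 0.0573), Col4a1 at -0.20 (edgeR adjusted p = 0.168), Col4a2 at -0.15 (edgeR adjusted p = 0.342) and Lamc1 at -0.20 (edgeR adjusted p = 0.135), each under the fold threshold. Col4a2, Lamb3 (-0.06), Agrn (-0.10) and Fn1 (-0.06) no longer had an unadjusted p under 0.05 there, while Lama3 (-0.12) still did. Lamb2 (0.18) and Sparc (0.22) were higher at that level. The median of the 21 genes became -0.10.

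**Figure D4:**
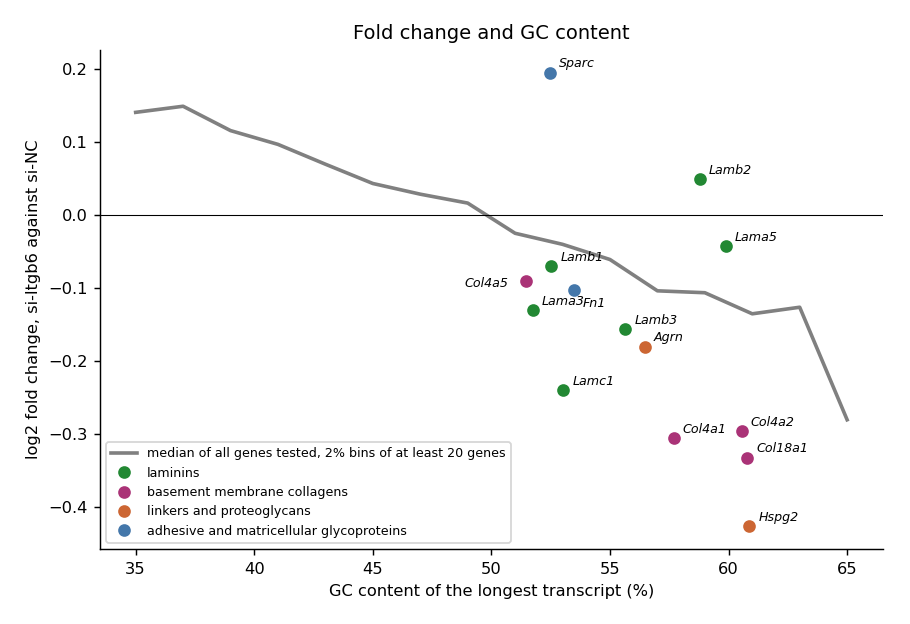
Log2 fold change against GC content of the longest transcript for members with at least 1000 counts, with the median of all genes tested in bins of 2% GC (grey line). The grey line falls from left to right, and Hspg2, Col18a1, Col4a1 and Col4a2 lie below it while Sparc, Lamb2 and Lama5 lie above it.

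The fibrillar collagens had almost no counts, and those present came mainly from 1 library. Col1a1 and Col1a2, the chains of type I collagen, had 0, 1, 22 and 2 counts and 0, 0, 11 and 0 counts, in the library order given above for Nid1. Col3a1, the type III chain, had 0, 1, 14 and 0 in the same order. Summed over all 11 fibrillar genes, counts were 11, 14, 67 and 20. In the same libraries Lyz2, a macrophage gene, had 0, 0, 11 and 0 counts, the macrophage protease gene Mmp12 had 1, 0, 13 and 1, and the fibroblast proteoglycan gene Dcn had 0, 0, 5 and 1. These genes were named after their values were seen. They were highest in si-Itgb6 replicate 1, as were Nid1 and the type I and III chains, and their part in those counts was not tested. Summed over the marker lists, fibroblast genes had 69, 81, 82 and 82 counts and macrophage genes 454, 469, 434 and 373. Csf1r alone made up most of the macrophage sum, and the other 6 genes had 5, 1, 16 and 8 counts. Of the 16, 11 were the Lyz2 counts given above. Ptprc had 3, 1, 0 and 6 and Adgre1 0, 0, 0 and 1, so neither had a count in si-Itgb6 replicate 1. Itgam had 0, 0, 2 and 1, C1qa 0, 0, 1 and 0, and C1qb 2, 0, 2 and 0. Col27a1, the fibrillar gene with the highest mean FPKM, was not highest in si-Itgb6 replicate 1, with 6, 4, 4 and 13 counts. Type I and III collagen were thus present as traces, below the filter. Without a filter, Col1a1, Col1a2 and Col3a1 were called higher, on counts that came mostly from that 1 library.

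**Figure D5:**
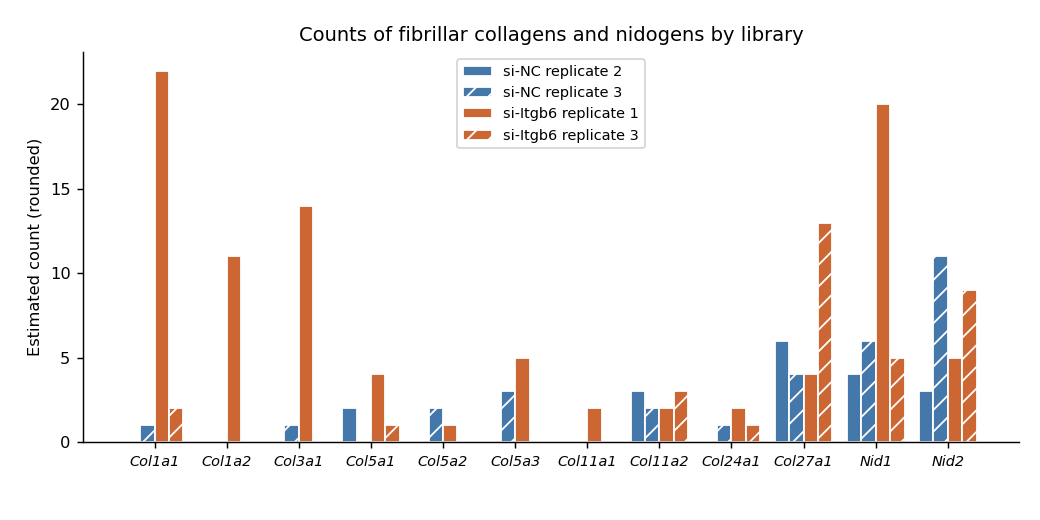
Rounded counts (vertical, from 0) of 10 fibrillar collagen genes and the nidogens in each library; Col2a1, with no count, is left out. The tall bars of Col1a1, Col1a2, Col3a1 and Nid1 belong to si-Itgb6 replicate 1 alone.

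Of the 25 other collagens, 9 had no count and 2 were tested. Col7a1, the anchoring fibril collagen, had 99 and 92 counts against 72 and 82 (log2 fold change -0.24, SE 0.22, edgeR adjusted p = 0.627). Col16a1, a collagen with interrupted triple helices, had 26 and 9 against 5 and 16, with overlapping groups (-0.68, SE 0.61). All type VI chains, which form the beaded filaments of interstitial matrix, had at most 6 counts in a library.

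Genes that make, modify and bind this matrix were read from lists of known function. Of 18 tested genes of collagen folding and modification, none passed both edgeR thresholds, although 13 estimates were lower (median -0.05) and 2 were lower and 1 higher at an unadjusted p under 0.05, against 9.62% and 8.80% of all genes. Their summed level was 4791 to 4965 CPM in the 4 libraries once scaled, mostly from P4hb (2335 to 2441 CPM) and Pdia3 (799 to 884 CPM). Of the hydroxylase genes, P4ha1 (286 to 306 CPM), P4ha2 (244 to 255 CPM) and Plod2 (188 to 217 CPM) were expressed beside a small set of collagens. P4ha3, P3h1 and P3h3 were at or under 1.5 CPM. These genes were named after their values were seen. Of 7 tested genes of propeptide processing and cross-linking, 2 were lower at both thresholds, against 5.20% of all genes. Tgm2, the tissue transglutaminase that cross-links fibronectin and other matrix proteins, had 1516 and 1557 counts against 1052 and 1175 (-0.39, SE 0.07, edgeR adjusted p = 0.0011). Bmp1, the procollagen C-proteinase, had 489 and 553 against 389 and 406 (-0.32, SE 0.11, edgeR adjusted p = 0.0838).

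Of 16 tested collagen and laminin receptors, 1 was lower at both thresholds and none higher, against 5.20% and 4.37% of all genes. At an unadjusted p under 0.05, 5 were lower and 0 higher, against 9.62% and 8.80% of all genes. Dag1 encodes dystroglycan, the receptor that binds perlecan, agrin and laminins. It had 2811 and 2811 counts in si-NC and 2012 and 2087 in si-Itgb6 (-0.38, SE 0.06, edgeR adjusted p = 0.0002), and kept its call once those trends were taken out (-0.34). The integrin genes Itga3 and Itgb1, subunits of a laminin receptor, were named after their values were seen. Itga3 had 20936 and 22994 counts against 18049 and 18365 (-0.20, SE 0.05, edgeR adjusted p = 0.0074), under the fold threshold. Itgb1 had 11011 and 11217 counts against 9945 and 11245 (0.00, SE 0.05). Of 19 other tested basement membrane and matrix genes, 3 were lower and 1 higher at both thresholds. At an unadjusted p under 0.05, 5 were lower and 1 higher. The shares of all genes beside these counts are those given for the receptors. Ccn1, encoding a matricellular protein, had 3211 and 3192 counts against 2498 and 2534 (-0.28, SE 0.06, edgeR adjusted p = 0.0045). Tnc, encoding tenascin-C, was lower at -0.37 (edgeR adjusted p = 0.0951), as was Efemp2, encoding the elastic fibre protein fibulin-4, at -0.27 (edgeR adjusted p = 0.154). Tgfbi, a TGF-β-induced adhesion protein, had 6 and 5 counts against 14 and 21 (1.71, edgeR adjusted p = 0.118), a value resting on few counts, from a gene that passed the filter through its si-Itgb6 libraries alone. Once trends on GC and length were taken out, Bmp1 (-0.21), Ccn1 (-0.25) and Efemp2 (-0.23) fell under the fold threshold. In that fit Itga3 stood at -0.08. Itga2, named after its values were seen, moved from -0.22 to -0.29. It and Dag1 were the 2 receptors lower at both thresholds there, against 3.96% of all genes.

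Of 14 tested matrix proteases and inhibitors, 2 were lower and 1 higher at both thresholds, against 5.20% and 4.37% of all genes. Timp3, the metalloproteinase inhibitor that binds to the matrix, rose from 1076 and 1266 counts to 1380 and 1481 (0.36, SE 0.08, edgeR adjusted p = 0.003). Mmp11, a metalloproteinase, had 308 and 283 counts against 218 and 210 (-0.39, SE 0.14, edgeR adjusted p = 0.0919). Mmp17 had 13 and 26 counts against 4 and 8 (-1.61, SE 0.63, edgeR adjusted p = 0.142), and passed the filter through its si-NC libraries alone. Of 21 tested cell type markers, 2 passed both thresholds, as higher, against 4.37% of all genes. Aqp1, a water channel of the proximal tubule, had 387 and 477 counts against 601 and 633 (0.59, SE 0.10, edgeR adjusted p = 0.0006). Twist2, a fibroblast transcription factor, had 17 and 18 against 35 and 30 (0.96, SE 0.43, edgeR adjusted p = 0.214). At an unadjusted p under 0.05, 4 markers were lower and 3 higher, against 9.62% and 8.80% of all genes. Among 7 tested epithelium markers, 3 were lower at that level with changes under 1.2-fold: Krt8 (-0.20, edgeR adjusted p = 0.0088), Epcam (-0.15, edgeR adjusted p = 0.0783) and Cdh1 (-0.14, edgeR adjusted p = 0.117). Of the injured tubule markers, Lcn2 was lower (-0.17, edgeR adjusted p = 0.0322) and Havcr1 higher (0.19, edgeR adjusted p = 0.0358), also under 1.2-fold. These 5 were named after their values were seen, and their part in the members' differences was not tested.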

How the data were processed

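Polyadenylated RNA was sequenced as non-stranded paired-end libraries from 2 si-NC and 2 si-Itgb6 samples. The authors deposited estimated counts, not whole for 1447 to 1500 genes per library, and FPKM values; per-sample and summary values were identical. Aligner, counter and genome build are not given in the sources used here. The study's methods describe an optimisation of samples after a cluster analysis. The deposited counts were rounded and tested across the whole table with edgeR 4.0.16 in R 4.3.3: filterByExpr (minimum count 10, minimum total 15; 11727 genes tested), TMM factors, glmQLFit and glmQLFTest, without covariates. The biological coefficient of variation was 0.0551. Genes were called at p under 0.05 and a fold change over 1.2, and adjusted p-values are Benjamini-Hochberg values over all genes tested. CPM were computed from the counts. The fit was tested on simulated data.

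GC content and length came from the longest transcript of each gene in the GENCODE annotation supplied, and their lowess trends were removed as offsets in an alternative. DESeq2 1.42.0, other normalizations, filters, thresholds and leaving out each library were the further alternatives. Python 3 scripts summarised the tables. Named were Itgb6, the called members, the 2 members of each class with the highest mean FPKM, Fn1, Sparc, Nid1, Nid2, Hspg2, Agrn, Col1a1, Col1a2, Col3a1, Col4a1 and Col4a2, and up to 4 called genes per other list in order of p. Further names were chosen after their values were seen, and some are not marked so. The members and lists were chosen with earlier results of these data known. A floor of 3 counts corresponds to 0.174 to 0.194 CPM in a library. Counting intervals and floors cover counting error only. The values of 1 member are not reported here and it is left out of the plots; counts, sums and medians over the members include it.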

Additional observations from a re-analysis of the deposited data

How the results depend on the processing

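With 2 libraries per group, small differences rest on single libraries. No paired analysis was possible because the groups shared fewer than 2 replicate numbers. The 4 genes called lower (Hspg2, Col18a1, Col4a1 and Col4a2) were the genes called with edgeR's exact and likelihood ratio tests, DESeq2, RLE factors, library size alone, no filter, at least 10 counts in every library, and an adjusted p in place of p; none was called higher there, except without a filter. With the GC and length trends removed, 1 was called lower. At a fold change over 1.5 or over 2, 0 were. Leaving out 1 library gave 2 to 6 lower calls: Col18a1 and Hspg2 without si-NC replicate 2, 3 calls without si-Itgb6 replicate 3 (Col4a2 lost), 5 without si-NC replicate 3 (Lamc1 added) and 6 without si-Itgb6 replicate 1 (Lamc1 and Agrn added). Lamc1 ranged from -0.34 to -0.13 and Agrn from -0.27 to -0.09, each beyond the fold threshold in only some of these fits. Sparc ranged from 0.11 to 0.29, beyond the fold threshold only without si-NC replicate 2. Col1a1, Col3a1 and Nid1, untested in the main fit, passed the filter in some of these fits, on counts mostly from si-Itgb6 replicate 1. Without si-Itgb6 replicate 3 their estimates were higher, beyond the fold threshold. The estimate of Col1a1 was also higher, beyond that threshold, without si-NC replicate 3. Without a filter, 3 were called higher, Col1a1, Col1a2 and Col3a1, whose counts came mostly from si-Itgb6 replicate 1.

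The median over the tested members was -0.090 without a filter (50 genes), -0.10 with the trends removed, and -0.14 to -0.11 with 1 library left out. With the trends removed, the medians were -0.18 for basement membrane collagens and -0.033 for laminins. The laminin median was -0.109 to -0.042 with 1 library left out. The linkers and proteoglycans stood at -0.052 without a filter, where the sparse nidogens entered. The other collagens (2 or 3 genes) ranged from -1.32 to 0.087 with 1 library left out and reversed at 0.087 without si-NC replicate 2. Lama5 reversed at 0.059 with the trends removed. With 1 library left out, estimates that crossed 0 ranged from -0.178 to 0.0834 for Lama5, -0.0254 to 0.131 for Lamb2, -0.0374 to 0.901 for Lamc3, -1.67 to 0.32 for Col16a1 and -0.103 to 0.0909 for Itgb6. The cause was not tested. The 40 genes not tested had no more than 22 counts in a library, and 11 of them had none.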
